A study of Homo sapiens with 9 samples.

Results

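The subject is a group of 10 genes with which cells take up, store and sense iron. They were read in HEYA8, a line of human ovarian cancer cells, and were chosen by name from the deposited gene table: TFRC, SLC11A2, FTH1, FTL, NCOA4, SLC40A1, HMOX1, IREB2, ACO1 and FBXL5. All 10 were found among the 58735 genes of the table, and all 10 were among the 15232 genes with enough counts to be tested. The cells carried the label wild type and received compound 32, sunitinib or the solvent DMSO alone for 24 h, with 3 libraries of polyadenylated RNA per treatment. Sunitinib inhibits several receptor tyrosine kinases. Neither the doses nor any relation between the compounds is stated in the sources used here.

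Library totals lay between 15498101 and 18006171 counts. Sunitinib replicate 3 stood apart from the other libraries: in a chi-square test of counts over genes, the statistic divided by its degrees of freedom was 41.3 and 40.3 against its replicates, and 1.82 to 3.04 for all other pairs within a treatment. Mitochondrial genes held 5.36% of its counts and 3.42 to 3.92% in the other 8 libraries. The labels name the cells high-grade serous. PAX8, a marker of that lineage, stood at 117 CPM (read counts corrected for the depth and composition of each library) with compound 32, 123 CPM with sunitinib and 132 CPM with DMSO, and the keratins KRT8 and KRT18 were at 321 CPM or above in every library. Of the 14 markers of this list 10 were tested, while CDH1, MUC16 and WFDC2 were at 0.325 CPM or below in every library. ESR1, also untested, had means of 0.187 to 0.354 CPM. Among those tested, KRT19, MSLN and EPCAM were low as well, at means of 0.521 to 2.13 CPM. The list summed to 1502 to 1611 CPM with compound 32, 1345 to 1419 CPM with sunitinib and 1297 to 1386 CPM with DMSO, and within it KRT7 had means of 66.1 CPM with compound 32, 224 CPM with sunitinib and 72.2 CPM with DMSO. The 10 macrophage markers summed to 1.03 to 2.09 CPM with compound 32, 0.682 to 1.43 CPM with sunitinib and 0.965 to 1.56 CPM with DMSO. None of the 11 markers of red cell precursors had enough counts to be tested. The 10 fibroblast and endothelial markers summed to 9.24 to 10.8 CPM with compound 32, 17.5 to 20.1 CPM with sunitinib and 10.8 to 14.1 CPM with DMSO, with CDH5 the highest of them at means of 4.10 CPM with compound 32, 13.8 CPM with sunitinib and 7.37 CPM with DMSO. The part of other cell types in the results was not tested.

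Iron enters most cells bound to transferrin, through the transferrin receptor that TFRC encodes, and what is not used is stored in ferritin, a shell of heavy chains (FTH1) and light chains (FTL). The RNA-binding proteins of this system, the iron regulatory proteins IRP1 (ACO1) and IRP2 (IREB2), bind a hairpin called the iron-responsive element (IRE) when iron is short. Hairpins in the 3′ UTR of the TFRC message then protect it from decay, whereas a hairpin near the 5′ end of the ferritin and ferroportin messages blocks their translation. The textbook pattern of iron shortage is thus more TFRC RNA and less ferritin protein, and for ferritin the amount of RNA need not change.

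The hairpins themselves are shown because they sort the genes into these classes. A script searched the GENCODE 29 coding transcripts of GRCh38 on the sense strand for a bulged C, an upper stem of 5 pairs (G-U pairs allowed), a loop of 6 bases reading CAGTGN or CAGAGN, and a lower stem with at least 4 pairs. The capitals mark the bulged C and the loop, and each run holds 27 bases, written as DNA. TFRC held 5 such sites, all in the last of the 19 exons of transcript TFRC-201 and all in the 3′ UTR, at chr3:196051030-196051056, chr3:196050980-196051006, chr3:196050576-196050602, chr3:196050511-196050537 and chr3:196050464-196050490 on the minus strand, here in 5′ to 3′ order.
TFRC site 1: tttatCagtgaCAGAGTtcactataaa
TFRC site 2: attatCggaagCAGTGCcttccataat
TFRC site 3: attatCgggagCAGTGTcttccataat
TFRC site 4: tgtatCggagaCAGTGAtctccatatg
TFRC site 5: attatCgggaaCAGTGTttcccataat
FTH1, FTL and SLC40A1 each held 1 site, in the 5′ UTR: FTH1 at chr11:61967575-61967601 on the minus strand, FTL at chr19:48965336-48965362 on the plus strand and SLC40A1 at chr2:189580662-189580688 on the minus strand.
FTH1 site: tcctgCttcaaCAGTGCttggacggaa
FTL site: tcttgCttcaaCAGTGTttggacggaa
SLC40A1 site: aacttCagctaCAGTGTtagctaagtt
A site of this strict shape was found in a UTR of 33 of 19684 coding genes, or 0.168%. SLC11A2, whose 3′ UTR is known to carry an IRE in some of its transcripts, matched only a looser rule with 4 upper pairs and any lower stem, at chr12:50988270-50988296 on the minus strand and, in the 5′ UTR, at chr12:51009235-51009261. The looser rule also matched the 3′ UTR of ACO1, HMOX1 and IREB2. It matched 12.2% of all coding genes, and the SLC11A2 site in the 3′ UTR is shown because it is in the UTR with the known element.
SLC11A2 looser site, 3′ UTR: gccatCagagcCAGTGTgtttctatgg

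**Figure D1:**
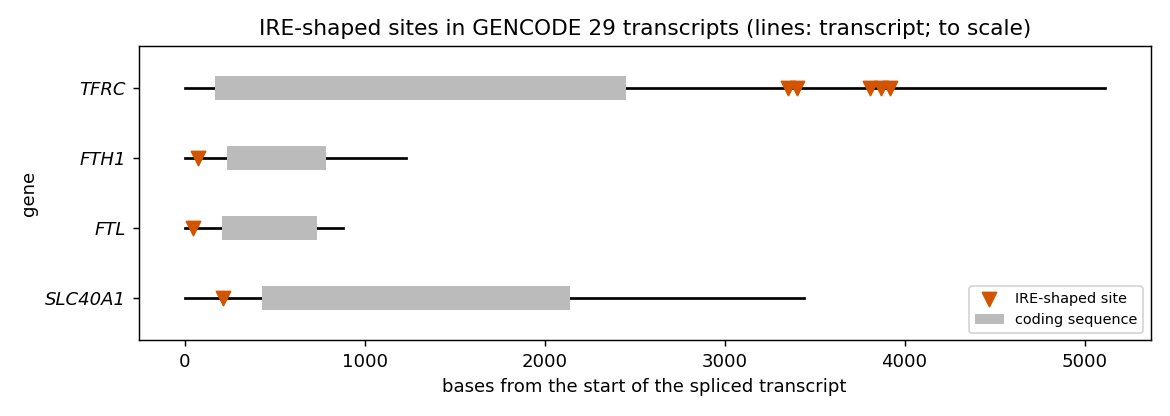
Position of the strict IRE-shaped sites (triangles) along the spliced transcripts of TFRC, FTH1, FTL and SLC40A1, in bases from the transcript start, with the coding sequence as a grey bar. The 5 sites of TFRC lie 902 to 1468 bases after its coding sequence, and the single sites of FTH1, FTL and SLC40A1 lie ahead of theirs.

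Per length of gene, FTL was the most abundant of the 10 under every treatment. On the scale of CPM per kilobase of the gene length in the deposited table, FTL reached 2003 ± 87.9 with compound 32, 2726 ± 447 with sunitinib and 2117 ± 140 with DMSO (SD, n = 3 each). On the same scale TFRC stood at 194 ± 6.11 with compound 32, 63.8 ± 5.29 with sunitinib and 119 ± 4.85 with DMSO. FTH1 stood at 177 ± 12.4 with compound 32, 218 ± 20.3 with sunitinib and 165 ± 10.2 with DMSO. TFRC thus ranked just above FTH1 with compound 32, where the ranges of their libraries overlapped, and below FTH1 with sunitinib and with DMSO, where they did not. Below them came NCOA4 at 53.1 to 65.5, ACO1 at 13.6 to 17.1 and HMOX1 at 8.64 to 14.1 as means of a treatment. With DMSO the ranges of HMOX1, FBXL5 and IREB2 overlapped, at means of 8.64, 8.50 and 8.14. SLC11A2 was at 5.00 to 5.43 and SLC40A1, at 0.518 to 0.765, was the least abundant under every treatment. These lengths join all exons of a gene and so can exceed those of a transcript: FTH1 has 2030 bases against 1229 in FTH1-201, TFRC 7887 against 5111 in TFRC-201, IREB2 10806 against 6354 in IREB2-201 and HMOX1 2405 against 1822 in HMOX1-201. Levels per length of such genes are low estimates, and ranks of genes with near levels depend on the length used.

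TFRC, the uptake receptor, moved in opposite directions under the compounds. The gene (ENSG00000072274) spans 196027183 to 196082189 on chromosome 3 of GRCh38, minus strand. It had 1550.2, 1568 and 1477 CPM with compound 32, 523, 531 and 455 CPM with sunitinib, and 978, 904 and 923 CPM with DMSO. No library of one treatment overlapped with those of another. The mean with compound 32 was 1.64 times that with DMSO, a log2 fold change of 0.71 ± 0.08 (SE; edgeR adjusted p = 7.26e-05). With sunitinib the mean was 0.538 times that with DMSO, a log2 fold change of -0.89 ± 0.08 (edgeR adjusted p = 5.51e-06). Compound 32 set directly against sunitinib gave 1.61 ± 0.08 (95% interval 1.44 to 1.78; edgeR adjusted p = 3.91e-08), a 3.05-fold difference in means, and 4.86% of all tested genes differed by more between these treatments. Both comparisons with DMSO use the same 3 DMSO libraries. In RNA from whole cultures, less RNA per cell and fewer cells that make it cannot be told apart, here and for the genes that follow.

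SLC11A2 encodes DMT1, which carries ferrous iron out of the endosome after transferrin uptake. Its level was 54.7, 54.2 and 52.5 CPM with compound 32, 56.7, 56.5 and 52.1 CPM with sunitinib, and 50.4, 49.9 and 51.7 CPM with DMSO. Every library with either compound lay above the DMSO libraries, but the differences were small, at 0.09 ± 0.06 for compound 32 (edgeR adjusted p = 0.39) and 0.12 ± 0.06 for sunitinib (edgeR adjusted p = 0.157). The interval of compound 32 against sunitinib ran from -0.18 to 0.11 on the log2 scale. Gene counts do not separate the SLC11A2 transcripts with the IRE from those without it.

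The ferritin transcripts were higher with sunitinib and were not called with compound 32. FTH1, the chain that oxidises iron, had 337, 353 and 386 CPM with compound 32, 473, 458 and 395 CPM with sunitinib, and 314, 355 and 337 CPM with DMSO. All sunitinib libraries lay above all others, whereas the ranges with compound 32 and DMSO overlapped. The log2 fold change was 0.10 ± 0.09 for compound 32 against DMSO (edgeR adjusted p = 0.466), 0.40 ± 0.09 for sunitinib against DMSO (edgeR adjusted p = 0.00336) and -0.30 ± 0.09 for compound 32 against sunitinib (edgeR adjusted p = 0.0127). The last of these was not called without compound 32 replicate 1 (edgeR adjusted p = 0.0672) or replicate 2 (edgeR adjusted p = 0.0521).

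FTL, the chain that helps iron to settle in the shell, had 1720.5, 1708 and 1848 CPM with compound 32, 2203, 2132 and 2845 CPM with sunitinib, and 1819, 1996 and 1759.9 CPM with DMSO. The sunitinib libraries again lay above the rest, and sunitinib replicate 3 was the highest of all 9. The log2 fold change was -0.08 ± 0.11 for compound 32 against DMSO (edgeR adjusted p = 0.653), 0.36 ± 0.11 for sunitinib against DMSO (edgeR adjusted p = 0.0182) and -0.44 ± 0.11 for compound 32 against sunitinib (edgeR adjusted p = 0.00499). Without sunitinib replicate 3 the value for sunitinib against DMSO was 0.22 (edgeR adjusted p = 6.19e-05). The sunitinib call was lost without DMSO replicate 1 (edgeR adjusted p = 0.0752) or DMSO replicate 3 (edgeR adjusted p = 0.0844).

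Ferritin genes have many processed copies and FTH1 shares its locus. The table lists 25 FTH1 pseudogenes, whose counts summed to 0.82 to 1.55% of the FTH1 count, and 16 FTL pseudogenes, whose counts summed to 0.0206 to 0.11% of the FTL count. FTL (ENSG00000087086) spans 48965301 to 48966878 on chromosome 19, plus strand. FTH1 (ENSG00000167996; chromosome 11, 61959718 to 61967660) overlaps BEST1 on the opposite strand by 5798 bases. BEST1 had 5, 9 and 2 counts with compound 32, 41, 36 and 33 with sunitinib, and 5, 3 and 10 with DMSO, beside 4835 to 8928 counts for FTH1. How the counting treated reads of such copies or overlaps is unknown from the sources used here.

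NCOA4, the receptor that delivers ferritin to the lysosome for iron release, was lower with sunitinib. Its level was 274, 265 and 262 CPM with compound 32, 213, 218 and 219 CPM with sunitinib, and 261, 259.8 and 265 CPM with DMSO. The sunitinib libraries lay below all others, and those of compound 32 overlapped with DMSO. The log2 fold change was 0.03 ± 0.06 for compound 32 against DMSO (edgeR adjusted p = 0.781), -0.28 ± 0.06 for sunitinib against DMSO (edgeR adjusted p = 0.00241) and 0.30 ± 0.06 for compound 32 against sunitinib (edgeR adjusted p = 0.00094). With sunitinib the transcripts of both ferritin chains were therefore higher and that of their lysosomal receptor was lower.

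SLC40A1, the exporter ferroportin, was near the limit of what could be measured, with 24 to 63 counts per library. It had 2.97, 3.19 and 3.77 CPM with compound 32, 2.96, 1.49 and 2.28 CPM with sunitinib, and 2.53, 3.00 and 3.34 CPM with DMSO. Its log2 fold changes were 0.16 ± 0.24 for compound 32 against DMSO (edgeR adjusted p = 0.68) and -0.39 ± 0.25 for sunitinib against DMSO (edgeR adjusted p = 0.235). With intervals of -0.36 to 0.68 and -0.93 to 0.15, a change of the size seen for FTH1 could not be detected for this gene at this depth. Single libraries moved these values: with sunitinib against DMSO it was -0.66 without sunitinib replicate 1 and -0.17 without sunitinib replicate 2. Compound 32 against sunitinib gave 0.55 ± 0.24 (edgeR adjusted p = 0.0812), which was 0.82 and called without sunitinib replicate 1 (edgeR adjusted p = 0.022) and 0.33 without sunitinib replicate 2 (edgeR adjusted p = 0.25). Against DMSO, the value with compound 32 was 0.06 without compound 32 replicate 3 or DMSO replicate 1, and 0.26 without DMSO replicate 3.

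HMOX1 encodes haem oxygenase 1, which opens the haem ring and frees its iron, and was higher with compound 32. The gene (ENSG00000100292) spans 35380361 to 35394214 on chromosome 22, plus strand. Its level was 34.8, 32.9 and 33.9 CPM with compound 32, 23.8, 22.2 and 23.0 CPM with sunitinib, and 20.7, 19.2 and 22.4 CPM with DMSO. The compound 32 libraries lay above all others, while the ranges with sunitinib and DMSO overlapped. The log2 fold change was 0.71 ± 0.08 for compound 32 against DMSO (edgeR adjusted p = 0.000136), 0.15 ± 0.08 for sunitinib against DMSO (edgeR adjusted p = 0.182) and 0.56 ± 0.08 for compound 32 against sunitinib (edgeR adjusted p = 0.000172). In the fold of its mean over DMSO, 1.63, HMOX1 under compound 32 was close to TFRC at 1.64.

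**Figure D2:**
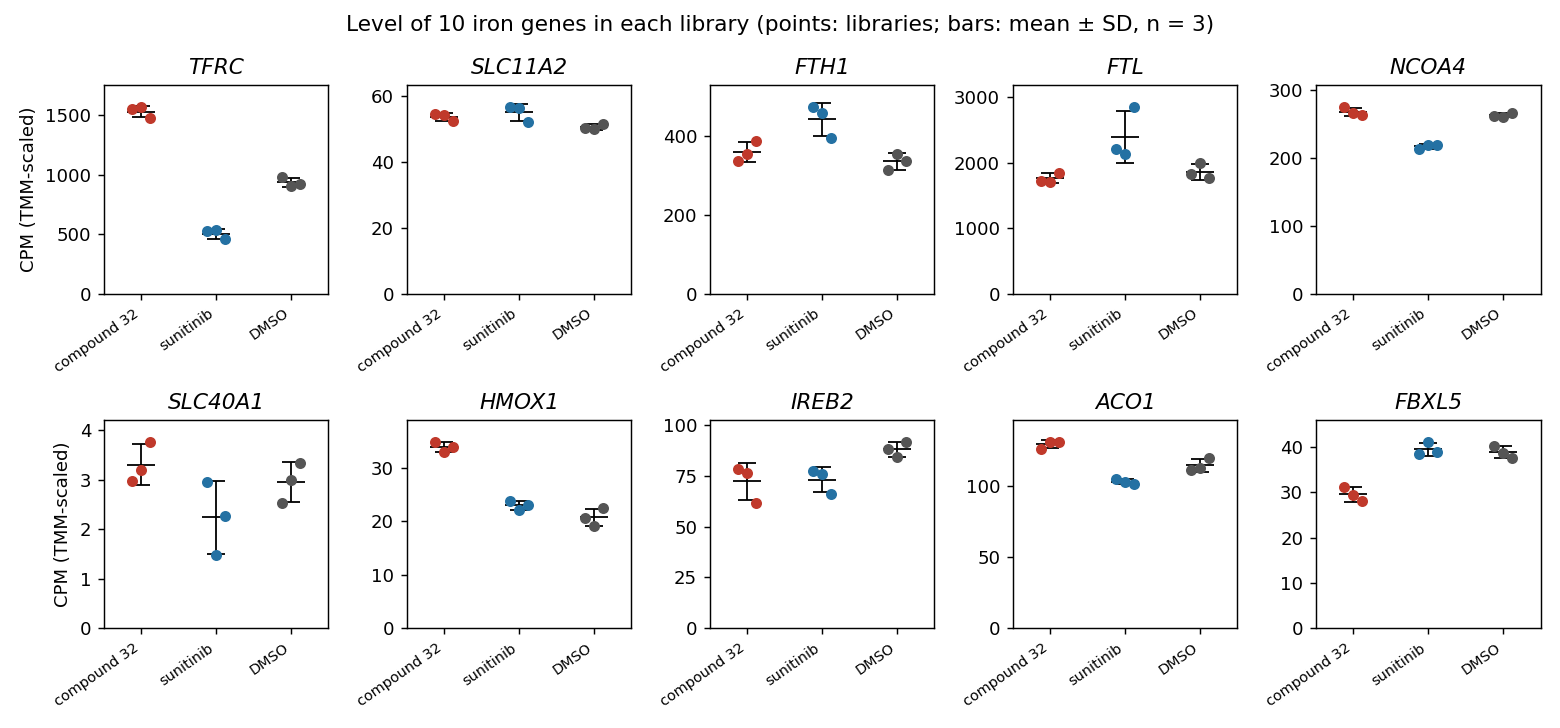
Level of each of the 10 genes in CPM (y axis, from 0) in each library (points), with compound 32, sunitinib and DMSO side by side and bars for the mean ± SD (n = 3). TFRC separates into 3 levels, at means of 1532, 503 and 935 CPM, FTH1 and FTL are highest with sunitinib, and HMOX1 is highest and FBXL5 lowest with compound 32.

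The sensors moved less than TFRC. FBXL5, the part of a ubiquitin ligase that binds iron and marks IRP2 for destruction when iron is ample, was lower with compound 32. The gene (ENSG00000118564) spans 15604539 to 15681679 on chromosome 4, minus strand. It had 31.3, 29.4 and 28.03 CPM with compound 32, 38.5, 41.1 and 38.9 CPM with sunitinib, and 40.2, 38.8 and 37.6 CPM with DMSO. All compound 32 libraries lay below all others. The log2 fold change was -0.39 ± 0.07 for compound 32 against DMSO (edgeR adjusted p = 0.00295), 0.02 ± 0.07 for sunitinib against DMSO (95% interval -0.14 to 0.18; edgeR adjusted p = 0.819) and -0.42 ± 0.07 for compound 32 against sunitinib (edgeR adjusted p = 0.000644). FBXL5 overlaps FAM200B on the opposite strand by 18 bases.

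IREB2, the gene of IRP2, had 78.5, 76.5 and 61.5 CPM with compound 32, 77.2, 75.8 and 66.1 CPM with sunitinib, and 88.3, 84.2 and 91.5 CPM with DMSO. Every library with a compound lay below the DMSO libraries, and replicate 3 was the lowest with each compound. The log2 fold change was -0.29 ± 0.10 for compound 32 (edgeR adjusted p = 0.0549) and -0.27 ± 0.10 for sunitinib (edgeR adjusted p = 0.0455), so only the second was called, by a small margin. The sunitinib call was lost on leaving out any 1 of the DMSO libraries (edgeR adjusted p from 0.0648 to 0.127), sunitinib replicate 2 (0.0533) or compound 32 replicate 2 (0.0547). Without sunitinib replicate 3 the fall with compound 32 was called, at the same size (edgeR adjusted p = 0.000632). Compound 32 against sunitinib gave -0.02 ± 0.10, with an interval of -0.23 to 0.19.

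ACO1 encodes IRP1, which is an aconitase when it holds its iron-sulfur cluster and an RNA-binding protein when it does not. It had 126, 131 and 131 CPM with compound 32, 105, 102 and 101 CPM with sunitinib, and 111, 112 and 119 CPM with DMSO. The 3 treatments did not overlap, with compound 32 at the top and sunitinib at the bottom. Against DMSO neither difference was called, at 0.18 ± 0.06 for compound 32 (edgeR adjusted p = 0.0524) and -0.15 ± 0.06 for sunitinib (edgeR adjusted p = 0.0613). The difference between the compounds was called, at 0.33 ± 0.06 (edgeR adjusted p = 0.000777). Without sunitinib replicate 3 both differences from DMSO were called, with an edgeR adjusted p of 0.000808 for compound 32 and 0.0153 for sunitinib.

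**Figure D3:**
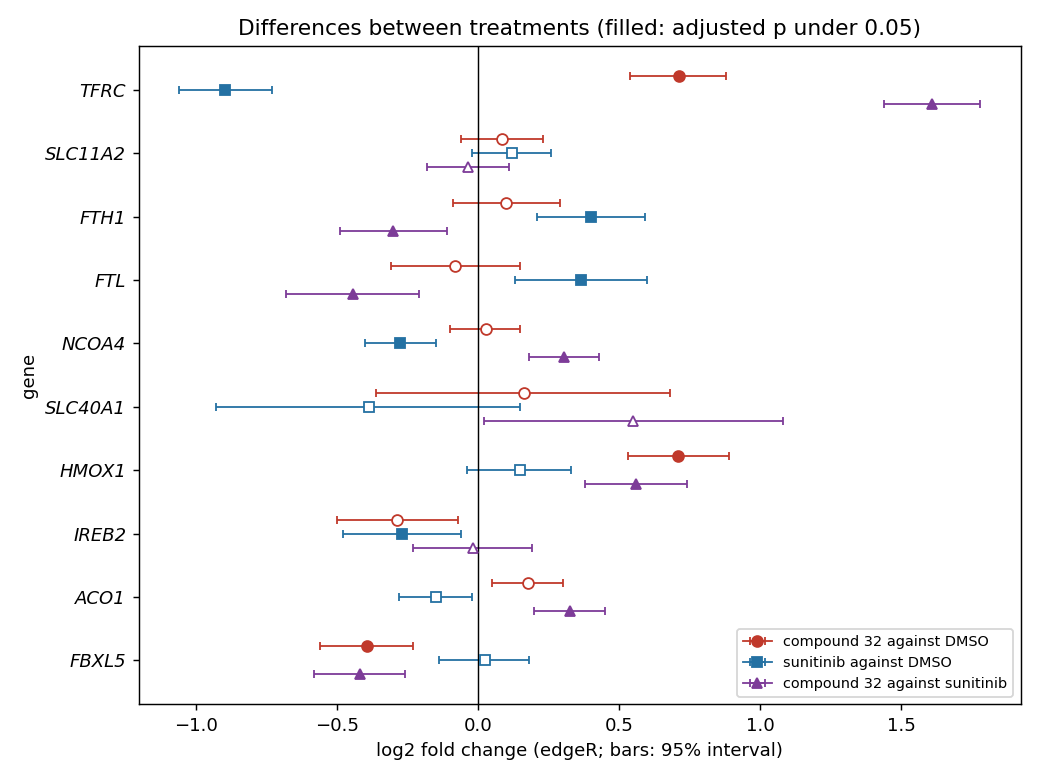
Log2 fold change of each of the 10 genes in the 3 comparisons (symbols), with 95% intervals from edgeR; filled symbols were called at an adjusted p under 0.05. TFRC has the widest separation, at 0.71 for compound 32 and -0.89 for sunitinib against DMSO, and the interval of SLC40A1 is the widest of the 10.

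Over the group, compound 32 against DMSO called 2 genes higher (TFRC and HMOX1), 1 lower (FBXL5) and 7 neither way, where 22.3% of all tested genes were called, 12% higher and 10.3% lower. The median log2 fold change of the 10 was 0.09, against 0.00 for all tested genes. Sunitinib against DMSO called 2 higher (FTH1 and FTL), 3 lower (TFRC, IREB2 and NCOA4) and 5 neither way, where 40.2% of all genes were called (20.3% higher and 19.9% lower), and the medians were -0.06 and 0.02. Compound 32 against sunitinib called 4 higher (TFRC, HMOX1, ACO1 and NCOA4), 3 lower (FTH1, FTL and FBXL5) and 3 neither way, where 49.2% of all genes were called (24.1% higher and 25.2% lower), and the medians were 0.14 and -0.03. At 3, 5 and 7 of 10, the counts were each above the share over all genes, and no test of that excess was made. Without sunitinib replicate 3, compound 32 against DMSO called 3 genes higher and 2 lower, where 42% of all tested genes were called.

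More of the 10 genes had groups that did not overlap than were called. With compound 32 against DMSO, 4 lay wholly higher (TFRC, SLC11A2, HMOX1 and ACO1) and 2 wholly lower (IREB2 and FBXL5), where 24.7% and 24.4% of all tested genes did so. With sunitinib against DMSO, 3 lay wholly higher (FTH1, FTL and SLC11A2) and 4 wholly lower (TFRC, NCOA4, IREB2 and ACO1), where 25.8% and 25.1% of all genes did so. With compound 32 against sunitinib, 5 lay wholly higher (TFRC, NCOA4, SLC40A1, HMOX1 and ACO1) and 3 wholly lower (FTH1, FTL and FBXL5), where 27.8% and 29% of all genes did so. For SLC40A1 the gap was only that between 2.97 CPM, the lowest with compound 32, and 2.96 CPM, the highest with sunitinib.

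Sorted by the hairpin, the transcript with strict 3′ sites (TFRC) was higher with compound 32 and lower with sunitinib. Of the 3 genes with a strict 5′ site, FTH1 and FTL were higher with sunitinib and not called with compound 32, and SLC40A1 was not called in either comparison. The direction of TFRC under compound 32 was thus that of the iron-shortage pattern, and under sunitinib it was the opposite. Ferritin protein, its translation, IRP binding and cellular iron are not read by these counts, and a part of IRP binding in these differences was not tested. The other genes with a strict 3′ site moved both ways. Of 18 tested, 3 were higher and 4 lower with compound 32 (median -0.04), and 3 higher and 4 lower with sunitinib (median -0.06). These and the next counts are to be read beside the shares of all tested genes called against DMSO. Those shares were 22.3% with compound 32 and 40.2% with sunitinib. Among the 5 other tested genes with a strict 5′ site, 1 was higher and 1 lower with compound 32 (median 0.10), and 0 were higher and 1 lower with sunitinib (median -0.05). This sorting was made after the values of the 10 genes were known, and most of these further sites come from the shape alone.

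A list of 8 genes with known or proposed IREs, which again holds SLC11A2, had 6 that were tested. EPAS1, the gene of HIF-2α with an IRE in its 5′ UTR, was higher with both compounds, at 69.8 CPM with compound 32, 118 CPM with sunitinib and 41.7 CPM with DMSO. Its log2 fold change was 0.74 ± 0.09 with compound 32 (edgeR adjusted p = 0.000192), and with sunitinib its mean was 2.83 times that with DMSO (edgeR adjusted p = 4.1e-07). It was the only one of the 6 called against DMSO with either compound, where 22.3% of all tested genes were called with compound 32 and 40.2% with sunitinib. CDC14A, a phosphatase with an IRE in its 3′ UTR, was higher with compound 32 than with sunitinib (0.66 ± 0.17, edgeR adjusted p = 0.00759).

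Ratios within a library do not depend on its scaling. The count of TFRC relative to FTH1 was 4.60, 4.44 and 3.82 with compound 32, 1.11, 1.16 and 1.15 with sunitinib, and 3.12, 2.55 and 2.74 with DMSO, and the 3 treatments did not overlap. FTL relative to FTH1 was 5.11, 4.84 and 4.78 with compound 32 and 5.80, 5.62 and 5.23 with DMSO. With sunitinib it was 4.66 and 4.65 in replicates 1 and 2 but 7.20 in replicate 3, a spread wider than the distance between any library with compound 32 and any with DMSO. IREB2 relative to FBXL5 was 2.51, 2.60 and 2.19 with compound 32, 2.00, 1.84 and 1.70 with sunitinib, and 2.20, 2.17 and 2.44 with DMSO. It was lowest in the 3 sunitinib libraries, while the ranges with compound 32 and DMSO overlapped.

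**Figure D4:**
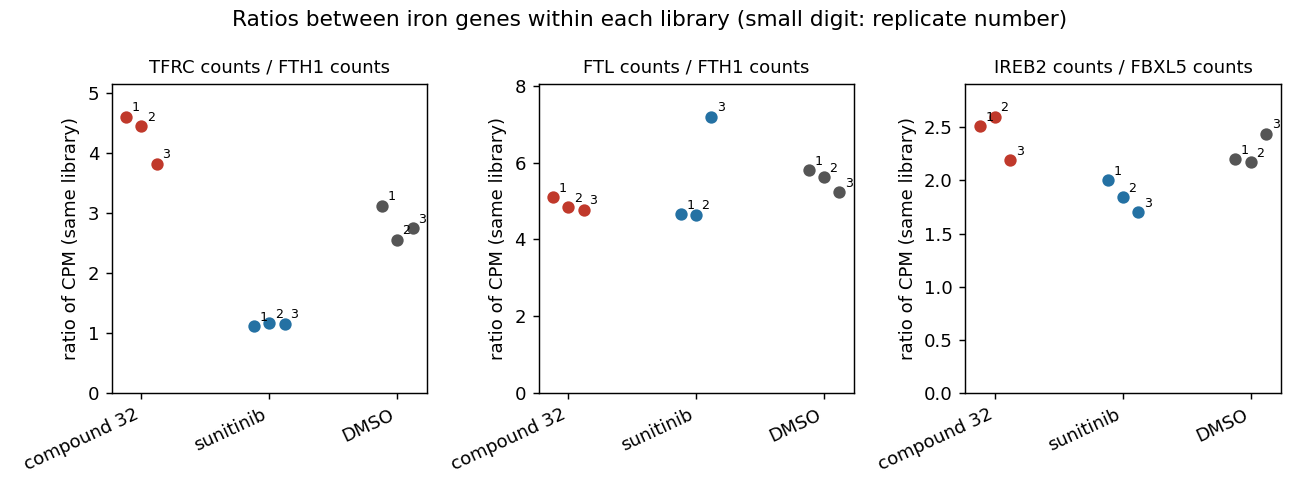
Ratio of the counts of 2 genes within each library (points, labelled by replicate), for TFRC over FTH1, FTL over FTH1 and IREB2 over FBXL5, with y axes from 0. The TFRC to FTH1 ratio runs from 3.82 to 4.60 with compound 32, 1.11 to 1.16 with sunitinib and 2.55 to 3.12 with DMSO, and sunitinib replicate 3 stands apart in FTL over FTH1 at 7.20.

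The genes whose profile over the 9 libraries lay closest to that of TFRC, by the root-mean-square distance of log2 CPM centred on DMSO, were CTDSPL (0.088), BRI3BP (0.091), CA12 (0.100), TK1 (0.104) and TEX15 (0.106), against a median distance of 0.680 over 10164 genes. TK1 is a thymidine kinase of S phase and CA12 a carbonic anhydrase of the cell surface. For FTH1 the closest were FAM160B2 (0.047), GRN (0.057), FKBP8 (0.062), NPDC1 (0.062) and HPCAL1 (0.065), with a median of 0.364. GRN encodes progranulin, a protein of the lysosome. For HMOX1 they were SESN1 (0.073), RNF19B (0.076), RNF24 (0.079), APOBEC3C (0.083) and MFGE8 (0.094), with a median of 0.499.

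The promoter of TFRC is shown because TFRC was the member with the largest differences and is known to be driven by hypoxia-inducible factors as well as by RNA decay. RefSeq promoters (GRCh38.p14, 250 bases before to 50 after the start) were found for 8 of the 10 genes, 13 promoters in all. They were searched on both strands for ACGTG, the core of the hypoxia response element, for CACGTG, the E-box that contains it, and for TGACNNNGC, the core of the antioxidant response element. TFRC held 1 match to ACGTG, at position -88 on the sense strand, and neither of the others. A window of 60 bases around it, chr3:196082147-196082206 on the minus strand, is given with the motif in capitals.
TFRC promoter: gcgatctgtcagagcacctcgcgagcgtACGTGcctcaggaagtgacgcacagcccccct
ACGTG occurs in 21.4% of 35116 promoters of this length, CACGTG in 7.26% and TGACNNNGC in 13.3%. FBXL5 held both ACGTG, as part of a CACGTG, and TGACNNNGC, FTL held ACGTG and NCOA4 held TGACNNNGC in one of its promoters. These matches are a description of the letters.

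The lists of the wider iron pathway held genes called in both directions; their counts are to be read beside the shares over all tested genes given above, 22.3% with compound 32 and 40.2% with sunitinib, both against DMSO. Of 18 further genes of iron import and reduction, 10 were tested, of which 1 rose and 3 fell with compound 32 (median log2 fold change -0.03), and 1 rose and 1 fell with sunitinib (median -0.07). SLC39A8, the zinc and iron transporter ZIP8, went the way of TFRC: its mean was 47.6 CPM with compound 32, 28.1 CPM with sunitinib and 37.8 CPM with DMSO, with log2 fold changes of 0.33 ± 0.08 (edgeR adjusted p = 0.01) and -0.43 ± 0.08 (edgeR adjusted p = 0.00124). Leaving out DMSO replicate 1 ended the first of these calls (edgeR adjusted p = 0.0518). STEAP3, which reduces iron in the endosome, fell with compound 32 by 0.31 ± 0.07 (edgeR adjusted p = 0.00968), and STEAP1, of the same family, fell by 0.82 ± 0.16 (edgeR adjusted p = 0.00354).

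Of 15 genes of iron export and its hormone hepcidin, 9 were tested, of which 1 rose and 0 fell with compound 32 (median 0.12), and 2 rose and 2 fell with sunitinib (median 0.01). ERFE, the hormone by which red cell precursors lower hepcidin, rose with both compounds, by 1.34 ± 0.14 with compound 32 (edgeR adjusted p = 5.79e-05) and 1.04 ± 0.14 with sunitinib (edgeR adjusted p = 0.000167), with means of 12.02 CPM with compound 32, 9.79 CPM with sunitinib and 4.75 CPM with DMSO. SMAD5, which relays the BMP signal for hepcidin, fell with sunitinib by 0.53 ± 0.08 (edgeR adjusted p = 0.000256). Of 16 genes of iron chaperones and ferritin turnover, 14 were tested, of which 1 rose and 3 fell with compound 32 (median 0.00), and 3 rose and 4 fell with sunitinib (median -0.13). PCBP1, the chaperone that loads ferritin with iron, fell with sunitinib to 134 CPM, against 217 CPM with DMSO, by 0.70 ± 0.09 (edgeR adjusted p = 0.000106). With compound 32 PCBP1 had -0.33 ± 0.09 (edgeR adjusted p = 0.0199). That call was lost without any 1 of the 6 libraries compared (edgeR adjusted p from 0.0582 to 0.0767). With sunitinib against DMSO, GABARAPL1 (0.67 ± 0.13) and TAX1BP1 (0.41 ± 0.10), both of autophagy, were higher. The cullin CUL1 (-0.43 ± 0.07), of the same list, was lower. The edgeR adjusted p of each was at most 0.00503. Sunitinib replicate 3 was the highest library for GABARAPL1 (56.6 CPM) and for TAX1BP1 (165 CPM). None of these genes was called with compound 32 against DMSO (edgeR adjusted p of at least 0.0582).

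Of 34 genes of iron-sulfur clusters and mitochondrial iron, 32 were tested, of which 4 rose and 2 fell with compound 32 (median -0.01), and 5 rose and 4 fell with sunitinib (median -0.02). ABCB10, a mitochondrial transporter tied to haem synthesis, went the way of TFRC, with 35.2 CPM with compound 32, 17.01 CPM with sunitinib and 25.6 CPM with DMSO, and log2 fold changes of 0.46 ± 0.10 (edgeR adjusted p = 0.00691) and -0.59 ± 0.10 (edgeR adjusted p = 0.000918). FDXR, the ferredoxin reductase, rose with compound 32 by 0.76 ± 0.10 (edgeR adjusted p = 0.000254). With sunitinib it had 0.32 ± 0.10 (edgeR adjusted p = 0.0202). That call was lost without DMSO replicate 1 (0.101) or 2 (0.0505), or without sunitinib replicate 1 (0.0648) or 2 (0.0602).

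Genes of haem synthesis and handling are the partners of HMOX1. Of 25, 21 were tested, of which 4 rose and 2 fell with compound 32 (median 0.07; 22.3% of all genes were called), and 8 rose and 4 fell with sunitinib (median 0.06; 40.2% of all genes). ALAS1, the rate-limiting enzyme of haem synthesis outside red cells, had 190, 185 and 196 CPM with compound 32, 80.7, 78.0 and 98.2 CPM with sunitinib, and 70.7, 75.6 and 70.6 CPM with DMSO. Every compound 32 library lay far above the others, and the rise was 1.40 ± 0.09 (edgeR adjusted p = 1.1e-06), larger than that of any of the 10 genes in that comparison. With sunitinib ALAS1 had 0.24 ± 0.09 (edgeR adjusted p = 0.0411), and 0.13 without sunitinib replicate 3 (edgeR adjusted p = 0.0327). The call was lost without any 1 DMSO library (edgeR adjusted p from 0.068 to 0.137) or any 1 compound 32 library (edgeR adjusted p from 0.067 to 0.0701).

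Other steps of the haem pathway changed as well. CPOX, a later enzyme, rose with compound 32 by 0.36 ± 0.07 (edgeR adjusted p = 0.00232) and fell with sunitinib by 0.67 ± 0.07 (edgeR adjusted p = 1.75e-05). FECH, which inserts the iron, rose with sunitinib by 0.42 ± 0.09 (edgeR adjusted p = 0.00324) and had -0.18 ± 0.09 with compound 32 (edgeR adjusted p = 0.197). FLVCR1, long described as a haem exporter, fell with sunitinib by 0.64 ± 0.12 (edgeR adjusted p = 0.00119), and BLVRB, which acts after HMOX1 on bilins, rose with sunitinib by 0.42 ± 0.08 (edgeR adjusted p = 0.00185). With compound 32 BLVRB had 0.27 ± 0.08 (edgeR adjusted p = 0.0353), a call that was lost without any 1 of the 6 libraries compared (edgeR adjusted p from 0.0682 to 0.133).

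**Figure D5:**
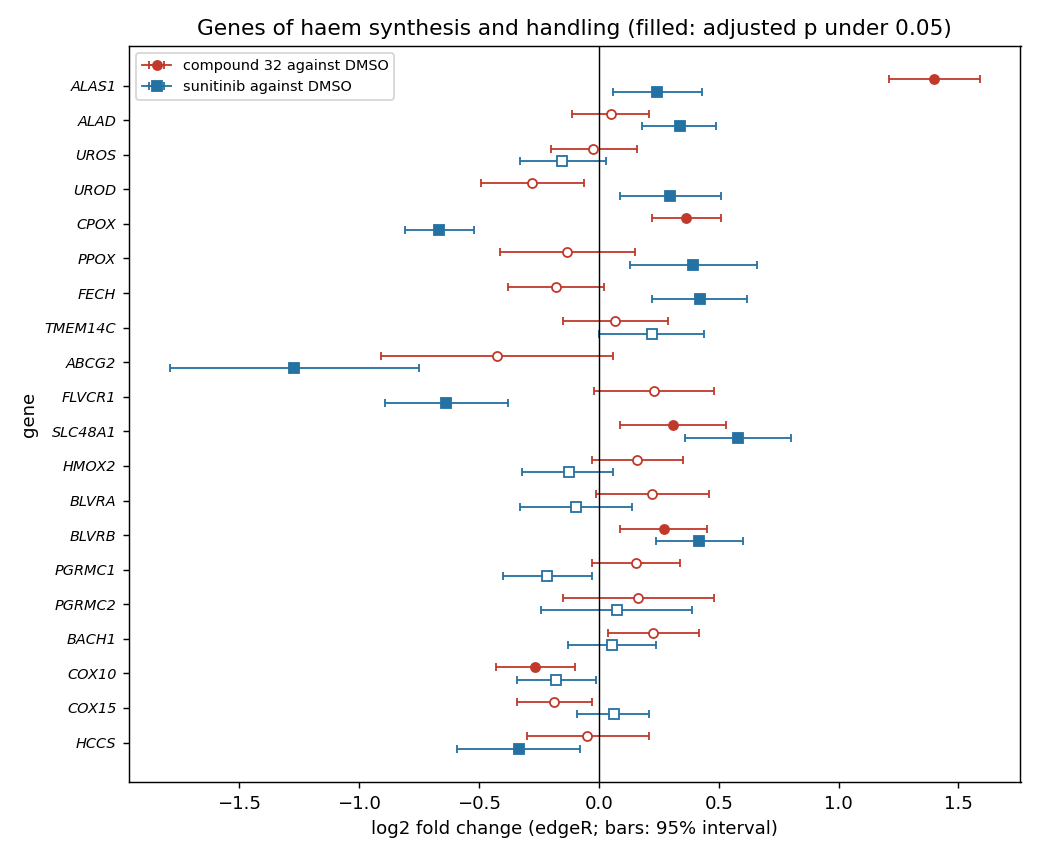
Log2 fold change against DMSO of 20 of the 21 tested genes of haem synthesis and handling, for compound 32 (circles) and sunitinib (squares), with 95% intervals from edgeR; filled symbols were called at an adjusted p under 0.05. ALAS1 stands apart at 1.40 with compound 32, and CPOX was called in opposite directions under the compounds.

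HMOX1 is a classic target of NRF2, a factor of the oxidative stress response, and is repressed by BACH1, which haem inactivates. Of 26 other NRF2 targets, 25 were tested, of which 1 rose and 1 fell with compound 32 (median -0.09; 22.3% of all genes were called), and 4 rose and 2 fell with sunitinib (median 0.01; 40.2% of all genes). OSGIN1 was the one that rose with compound 32, by 0.54 ± 0.09 (edgeR adjusted p = 0.00143). SLC7A11, the cystine carrier, which is also a target of ATF4, was the one that fell, by 0.51 ± 0.12 (edgeR adjusted p = 0.00957, and 0.05 without compound 32 replicate 3, which ended the call), and it rose with sunitinib by 1.08 ± 0.12 (edgeR adjusted p = 3.04e-05). NQO1, TXNRD1 and GCLC, commonly read as markers of NRF2, had -0.15 ± 0.12, 0.10 ± 0.06 and -0.03 ± 0.08 with compound 32 and were not called (edgeR adjusted p of at least 0.311). Among 7 regulators of this response, 2 rose with compound 32, and 1 rose and 1 fell with sunitinib. MAFF, a small partner of NRF2 and BACH1, rose with compound 32 to 74.0 CPM, against 37.0 CPM with DMSO, by 1.00 ± 0.08 (edgeR adjusted p = 1.01e-05). NFE2L2, the gene of NRF2, had 0.03 ± 0.11 (edgeR adjusted p = 0.857) and BACH1 0.23 ± 0.09 (edgeR adjusted p = 0.0809), neither of them called.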

How the data were processed

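The table of raw read counts per gene was deposited by the authors, with 58735 genes and 9 count columns. Column names were matched to the names in the samples' labels. Per the submitters' processing notes, fastp, HISAT2 2.0.5, featureCounts, DESeq2 and edgeR were used, with no role given, and a mouse build (mm10) is listed beside the human build hg38. All gene IDs, names and coordinates were those of GENCODE 29 on GRCh38. The use of strand and the treatment of reads with several matches are not stated in the sources used here. Polyadenylated RNA was selected on oligo(dT) beads, per the labels' protocols.

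Genes were kept with edgeR's filterByExpr (15232 genes) and scaled by TMM factors (0.983 to 1.051); CPM use these factors. edgeR 4.0.16 (R 4.3.3) fitted a quasi-likelihood model with robust estimation to all 9 libraries, leaving 6 residual degrees of freedom. Calls needed an adjusted p (Benjamini-Hochberg, over all tested genes) under 0.05. Errors of log2 fold changes are standard errors. The script was tested on simulated counts. Biological replication is stated in the series text for sunitinib and DMSO but not for compound 32, where p-values may measure only technical spread between the 3 samples. The labels give 1 day for all samples.

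The members and all gene lists were chosen with earlier results of these data known. Beyond the members, up to 3 called genes with the largest rise and 3 with the largest fall per list and comparison, at a mean of at least 5 CPM, qualified to be named, and values of other genes (FECH, NQO1, TXNRD1, GCLC, NFE2L2 and BACH1 among them) were added after they were seen. The 5 closest profiles were taken from 10164 coding genes. Alternatives were other scalings and filters, DESeq2 1.42.0, limma voom (limma 3.58.1), a replicate block, the 6 libraries compared, a threshold of 0.01, and leaving out each library. Values of some genes in these lists are not reported here.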

Additional observations from a re-analysis of the deposited data

How the results depend on the processing

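Of the 15 calls among the 10 iron genes, 12 held under all 19 alternatives and none changed direction, including TFRC in all 3 comparisons (0.68 to 0.74, -0.94 to -0.81 and 1.52 to 1.65) and HMOX1 with compound 32 against DMSO (0.65 to 0.76). The calls lost under some alternative were FTL and IREB2 with sunitinib against DMSO and FTH1 with compound 32 against sunitinib. With 6 libraries FTL under sunitinib had an adjusted p of 0.0594. IREB2 under sunitinib was not called with upper-quartile factors (0.15), library totals (0.141) or a filter at 1 CPM (0.0594). ACO1 with compound 32 against DMSO was called by DESeq2 (0.0322) and with 6 libraries (0.00134). Values near 0 changed sign without a call: FBXL5 with sunitinib against DMSO was -0.01 with no filter, without DMSO replicate 3 and without sunitinib replicate 2, with a range of -0.01 to 0.04 on leaving out a library, and IREB2 with compound 32 against sunitinib was 0.01 with no filter, 0.02 without sunitinib replicate 1, 0.01 without sunitinib replicate 2 and 0.09 without compound 32 replicate 3, with a range of -0.08 to 0.09 on leaving out a library. The cause was not tested.

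With compound 32 against DMSO, 1830 genes were called higher and 1571 lower over the whole table; these were 977 and 738 at an adjusted p under 0.01, 3258 and 3114 with 6 libraries, and 1168 to 3359 and 968 to 3189 on leaving out a library, the highest without sunitinib replicate 3. Sunitinib against DMSO called 3090 higher, and 1857 at 0.01. Of the iron genes, compound 32 against DMSO called 1 lower, and 2 with no filter or with 6 libraries, with 1 to 2 on leaving out a library. Sunitinib against DMSO called 2 iron genes higher, 1 at 0.01 and with 6 libraries, 4 with upper-quartile factors, which added SLC11A2 (0.20) and HMOX1 (0.23), and 1 to 3 on leaving out a library.

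Deviations of same-numbered samples from their group means had correlations from -0.0769 to 0.0609. For samples with different numbers they ran from -0.0609 to 0.0882. With 3 libraries per group, such values cannot show whether same-numbered samples were handled together. With the replicate block 1559 genes were called higher and 1319 lower with compound 32 against DMSO. The counts of iron genes called were then the same in all 3 comparisons (2 and 1, 2 and 3, 4 and 3). Other iron-related genes were followed only in the comparisons where they qualified to be named, by the largest rises and falls per list. ALAS1 with sunitinib and BLVRB with compound 32, both against DMSO, were added. Of these 102 calls, 72 held under every alternative and none changed direction. Smaller calls of the lists were not followed. Depth limits SLC40A1 most, at 24 to 63 counts per library.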

Other observations

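Ferroptosis is a form of cell death in which iron drives the oxidation of membrane lipids. Of 17 genes of its control, 14 were tested. With compound 32 against DMSO 1 rose and 1 fell, where 22.3% of all tested genes were called. With sunitinib against DMSO 4 rose and 1 fell, where 40.2% of all tested genes were called. The medians were 0.03 and -0.10 on the log2 scale. GPX4, the enzyme that removes lipid peroxides, rose with sunitinib to a mean of 136 CPM, against 89.8 CPM with DMSO, by 0.60 ± 0.08 (edgeR adjusted p = 0.000127). CHAC1, which breaks down glutathione and is a target of ATF4, had 8.92 CPM with compound 32, 42.9 CPM with sunitinib and 9.92 CPM with DMSO, and rose with sunitinib by 2.11 ± 0.12 (edgeR adjusted p = 3.59e-07). SAT1, which acetylates polyamines, rose with sunitinib by 1.23 ± 0.15 (edgeR adjusted p = 7.76e-05). It had 46.4, 44.8 and 69.6 CPM there, the highest in replicate 3, against a mean of 22.9 CPM with DMSO. With compound 32 SAT1 had 0.47 ± 0.15 (edgeR adjusted p = 0.0465). That call was lost without any 1 of the 6 libraries compared (edgeR adjusted p from 0.0826 to 0.147). DHODH, a mitochondrial enzyme that also reduces ubiquinone, fell with compound 32 by 0.63 ± 0.11 (edgeR adjusted p = 0.00172), to 9.90 CPM against 15.3 CPM with DMSO.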
